A study of Homo sapiens with 12 samples.

Results

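The nuclear-encoded genes of the respiratory chain and the ATP synthase were followed in U87 cells, an established human glioblastoma line, after 72 h with steroids. The genes were chosen by a rule on their symbols, set with earlier results of these data known. They were the NDUF subunits of complex I, the SDH subunits of complex II, and the UQCR subunits with CYC1 and CYCS. The COX4 to COX8 subunits of complex IV and the ATP5 genes of complex V were also taken. Of 18417 genes with a transcript cluster of their own, 80 were members: 33 of complex I, 3 of complex II, 9 of complex III with cytochrome c, 17 of complex IV and 18 of complex V. A transcript cluster is the set of probes that reads 1 gene on the Affymetrix Human Gene 1.0 ST array. Assembly factors, 2 pseudogenes and 1 long non-coding RNA whose symbols matched were left out, and a gene with several clusters was represented by the brightest.

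Total RNA was measured on 12 arrays, 3 for each of 4 treatments. V was the DMSO vehicle (0.1% in the sample characteristics and 10% in the treatment protocol), 3α-THP was allopregnanolone at 10 nM, P4 was progesterone at 10 nM, and F was finasteride, a 5α-reductase inhibitor, at 100 nM. 3α-THP is a metabolite of P4 with a reduced ring (5α) and a 3α-hydroxyl group. All cultures had been moved the day before treatment to medium without phenol red and with charcoal-stripped serum, and all arrays come from this 1 cell line. The arrays are labelled as biological replicates 1 to 3, and the 3 V arrays were the control of all 3 steroids, so the comparisons with V are not independent of one another. In RNA of whole cultures, fewer cells with a transcript and less of it per cell cannot be told apart.

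Complexes I to IV pass electrons from NADH and succinate to oxygen. Complex I takes them from NADH, complex II from succinate, complex III hands them from ubiquinol to cytochrome c, and complex IV reduces oxygen. Complexes I, III and IV pump protons, and complex V, the ATP synthase, uses the gradient to make ATP. A few core subunits come from mitochondrial DNA, and their genes were not analysed here. The nuclear genes are known to be under shared control by NRF1, by the ETS factor GABP (NRF2) and by YY1, which act with coactivators of the PGC-1 family.

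The promoters of the members are shown first, since these factors are the best known link among genes of 5 complexes. RefSeq promoters of GRCh38.p14, from 250 bases before to 50 after the start, were found for 67 of the 80 members. The NRF1 core searched was GCGCATGC on both strands, and it stood in 13 of the 67 (19.4%), beside 4.26% of 15842 protein-coding promoters and 3.27% of all 27305. The ETS core CCGGAAG, on both strands, stood in 19 of the 67 (28.4%), beside 14.2% of protein-coding and 10.7% of all promoters. The YY1 core AAGATGGC, on both strands, stood in 10 of the 67 (14.9%), beside 3.91% and 3.03%. The 3 motifs do not hold one another, although the NRF1 core on its 2 strands can overlap itself. A match is a run of letters and was not tested as a site.

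The windows below are from members whose levels are described next, chosen to show the NRF1 core in COX5B, ATP5ME, ATP5MC2, NDUFS7, CYCS and NDUFA6, and the ETS core in COX5B, NDUFB7 and UQCR11. Each is 30 bases of RefSeq GRCh38.p14, 5′ to 3′ on the strand of the gene, with the motif in capitals.
COX5B, NRF1 core, plus strand, chr2:97645915-97645944: ggcagagctggGCATGCGCaatttccgccc
COX5B, ETS core, plus strand, chr2:97646014-97646043: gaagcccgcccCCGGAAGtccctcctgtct
ATP5ME, NRF1 core, minus strand, chr4:674336-674365: cgccgctgacgGCGCATGCgtgcgcccagc
ATP5MC2, NRF1 core, minus strand, chr12:53676105-53676134: gcccgggtcacGCATGCGCtgagccttcct
NDUFS7, NRF1 core, plus strand, chr19:1383823-1383852: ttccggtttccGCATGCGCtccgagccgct
CYCS, NRF1 core, minus strand, chr7:25125411-25125440: catgctcgccaGCATGCGCgcgcaggtcct
NDUFA6, NRF1 core, minus strand, chr22:42090920-42090949: tctgtagatgaGCATGCGCagcacccaccg
NDUFB7, ETS core, minus strand, chr19:14572072-14572101: gcctaaatgacCCGGAAGctgtgtctgact
UQCR11, ETS core, minus strand, chr19:1605561-1605590: tccaaccctcgCCGGAAGttactgtaagtg
In COX5B the NRF1 core ended 129 bases and the ETS core 31 bases before the start of the gene. The NRF1 core ended 71 bases before the start in ATP5ME and 162 bases before it in CYCS.

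Most members had bright clusters. Only UQCRB, COX6B2, COX7B2 and COX8C lay in the dimmest 25% of the tested clusters (log2 level under 4.99), and 50 of the 80 lay in the brightest 25%. All levels below are deposited log2 values of 1 cluster on 1 array, and differences are on the same scale. Levels of different clusters depend on their probes and were not compared. The markers of the line went with its label in part: VIM (12.5), FN1 (13.2) and CD44 (11.8), genes of mesenchymal glioblastoma cells, had high mean levels, while S100B and SOX2 were in the dimmest 25%. Of the measured markers of other cell types, 3 of 4 for leukocytes (PTPRC, CD3E and LYZ, not ITGAM), 2 of 3 for oligodendrocytes, 2 of 4 for endothelium, 2 of 4 for epithelium and 2 of 6 for neurons were in the dimmest 25%. Among the others, SNAP25 (8.62), KRT8 (7.33) and KRT18 (7.22) had clear mean levels.

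With 3α-THP the median of the respiratory chain genes, in the clusters used, was slightly below V in every complex. No member passed the study's threshold, which asks for both a fold above 1.5 and an unadjusted p under 0.05. Of all 21214 tested clusters, 0.679% passed it. The difference from V was below 0 for 70 of the 80 members, beside 58.9% of all clusters, with a median of -0.11 (-7.46%) beside -0.03 over all clusters. At an unadjusted p under 0.05 in the limma fit, 14 members were lower (background 4.09%) and 1 was higher (background 3.25%). After Benjamini-Hochberg adjustment over all clusters no member passed, and the smallest adjusted p was 0.406 (limma). On 18 members the 3 arrays of 3α-THP lay below the 3 of V without overlap (background 7.28%).

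The plot of deviations by array shows how the differences lay in the single arrays. Against the V array of the same replicate number, 68 of the 80 members were lower on 3α-THP array 1, 65 on array 2 and 54 on array 3. The corresponding medians were -0.13, -0.11 and -0.09. Thus each of the 3 arrays lay below its V partner over most members, and array 3 for fewer genes than arrays 1 and 2. The share of all clusters below the V partner was not computed. Over all clusters, the median deviation from the cluster mean was 0.038 on V array 1 and -0.014 on 3α-THP array 1. It was -0.011 and -0.017 for array 2, and 0.008 and -0.002 for array 3, so the counts include a general shift.

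**Figure D1:**
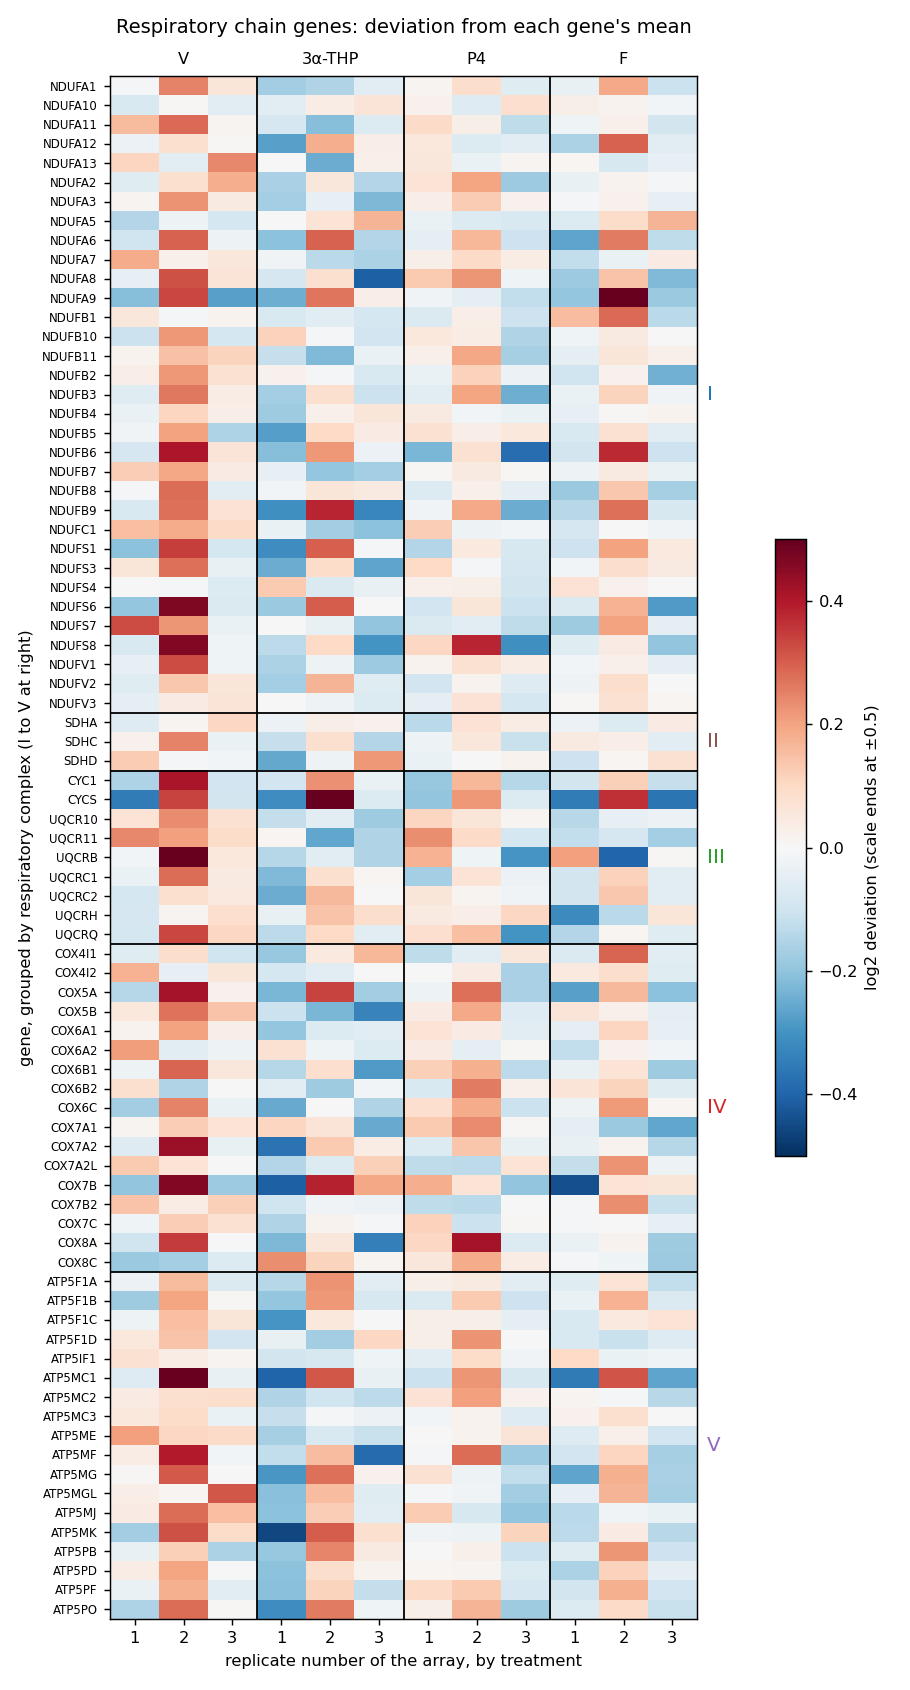
Heat map of the 80 respiratory chain genes (rows, grouped by complex I to V) on the 12 arrays (columns, by treatment and replicate number); the colour is the log2 deviation from the gene's mean over the 12 arrays. The columns numbered 2 are red over most rows in all 4 treatments. The 3α-THP columns are paler or bluer than the V column of the same number for 68, 65 and 54 of the 80 genes. The share over all clusters was not computed.

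COX5B, a nuclear subunit of cytochrome c oxidase, had the lowest value of the members against V. Its levels were 8.16, 8.39 and 8.25 on the V arrays and 8.01, 7.88 and 7.78 on the 3α-THP arrays. P4 gave 8.15, 8.30 and 8.05, and F gave 8.18, 8.14 and 8.07. All 3 arrays of 3α-THP lay below every other array of the series. The difference from V was -0.38 (-23.1%; SE 0.094, unadjusted p = 0.00153, adjusted p = 0.406, limma).

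NDUFC1, a small accessory subunit in the membrane arm of complex I, was at 7.80, 7.84 and 7.75 with V and at 7.62, 7.47 and 7.44 with 3α-THP. The groups did not overlap, and the difference was -0.28 (-17.8%; SE 0.079, unadjusted p = 0.00358, adjusted p = 0.437, limma). The P4 arrays (7.63 to 7.77) overlapped those of V but not those of 3α-THP. The F arrays (7.56 to 7.65) overlapped those of 3α-THP but not those of V.

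ATP5ME, subunit e of the ATP synthase, which takes part in joining the enzyme into dimers, was at 8.74, 8.64 and 8.63 with V and at 8.37, 8.46 and 8.43 with 3α-THP. It had the smallest spread of all members, with a residual SD of 0.052, and its difference was -0.25 (SE 0.073, unadjusted p = 0.0046, adjusted p = 0.468, limma). P4 (8.53 to 8.60) and F (8.44 to 8.56) also lay below all V arrays.

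Complex III held 2 of the lower members, both small subunits without redox groups. UQCR11 was at 7.49, 7.46 and 7.35 with V and at 7.26, 6.99 and 7.10 with 3α-THP, a difference of -0.31 (SE 0.099, adjusted p = 0.514, limma). UQCR10 was at 7.81, 7.98 and 7.82 with V and at 7.62, 7.68 and 7.56 with 3α-THP, a difference of -0.25 (SE 0.079, adjusted p = 0.532, limma). In both genes the groups were apart. UQCRB, the ubiquinone-binding accessory subunit, differed by -0.35, but its SE was 0.184 and it was among the 4 dim members. The catalytic and core genes of this step gave -0.02 for CYC1, which carries the haem of cytochrome c1, -0.14 for UQCRC1 and 0.20 for CYCS, cytochrome c itself, with an SE of 0.286.

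Most of the lower members belonged to complex I, which is also the largest complex. Of its 33 genes, 29 were below 0 and 8 had an unadjusted p under 0.05, all of them lower. The supernumerary subunits NDUFA1 (-0.23), NDUFA3 (-0.24), NDUFA7 (-0.19), NDUFA11 (-0.27), NDUFB7 (-0.25) and NDUFB11 (-0.22) were lower on every 3α-THP array than on any V array. Supernumerary proteins surround the core, and many are needed for assembly or stability of the complex. Of the 6 core subunits of the measured set, which include the carriers of the flavin and iron-sulphur centres, all were below 0, with a median of -0.22 (range -0.25 to -0.02).

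NDUFS7, which carries the last iron-sulphur cluster before ubiquinone, was the 1 core subunit with an unadjusted p under 0.05 in the fit without the replicate number. Its levels were 7.20, 7.09 and 6.84 with V and 6.87, 6.83 and 6.67 with 3α-THP, so the groups overlapped, and the difference was -0.25 (adjusted p = 0.674, limma). With the number as a block, NDUFS3 (-0.24), NDUFS8 (-0.23) and NDUFV1 (-0.21) also had an unadjusted p under 0.05, with adjusted p from 0.273 to 0.336 (limma). Thus 4 of the 6 core subunits were lower at that unadjusted p (background 7.91% of all clusters with the block). NDUFA5, a subunit of the arm in the matrix, went the other way. It was at 8.15, 8.27 and 8.21 with V and at 8.30, 8.37 and 8.47 with 3α-THP, a difference of 0.17 (adjusted p = 0.719, limma). Its unadjusted p was 0.0674, and 0.0465 with the replicate number as a block (limma).

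Complex II had the median closest to 0 of the 5 complexes. SDHA, the flavoprotein that oxidises succinate, was at 9.33, 9.41 and 9.50 with V and at 9.37, 9.43 and 9.42 with 3α-THP, a difference of -0.01 (SE 0.082). The membrane anchors SDHC and SDHD differed by -0.14 and -0.05, and all 3 genes overlapped between the treatments. SDHB was not analysed here. The second cluster of SDHC gave 0.09, opposite in sign, and that of SDHD gave -0.06, so the complex II values depend on the cluster chosen. By cluster number, the brighter clusters of both genes, and of NDUFV2 and ATP5MK, lie among those of other chromosomes. Whether they read copies of the genes was not tested. Of the 7 members with more than 1 cluster, ATP5MK also turned sign, with -0.10 in the brighter cluster and 0.04 in the other.

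In complex IV, 14 of 17 members were below 0 with a median of -0.11. COX6A1, the ubiquitous isoform of subunit 6A, differed by -0.19 (adjusted p = 0.674, limma), and its second cluster by -0.21. By its number, the second cluster of COX6A1 lies among those of another chromosome, and whether it reads a copy was not tested. The muscle isoform COX6A2 gave -0.05. The other isoform pairs were COX4I1 (0.03) and COX4I2 (-0.11), COX6B1 (-0.22) and the testis isoform COX6B2 (-0.06), COX7A1 (-0.10) with COX7A2 (-0.18) and COX7A2L (-0.10), COX7B (0.03) and COX7B2 (-0.15), and COX8A (-0.25) and COX8C (0.26). None of these except COX6A1 and COX8C had an unadjusted p under 0.05 in the fit without the replicate number. With the number as a block, COX6B1 and COX8A also did (unadjusted p = 0.0157 and 0.0109, limma). COX8C, a testis isoform of the last subunit, was the 1 higher member: 4.06, 4.08 and 4.18 with V and 4.48, 4.36 and 4.26 with 3α-THP, a difference of 0.26 (adjusted p = 0.552, limma). It was a dim member.

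In complex V, 17 of 18 members were below 0 with a median of -0.11. Besides ATP5ME, ATP5MC2 had an unadjusted p under 0.05. It is 1 of 3 genes that encode the same c subunit, whose ring turns in the membrane. ATP5MC2 was at 9.09, 9.12 and 9.13 with V and at 8.89, 8.94 and 8.91 with 3α-THP, a difference of -0.20 (SE 0.077, adjusted p = 0.614, limma). The other two c-ring genes gave -0.17 (ATP5MC1, SE 0.212) and -0.09 (ATP5MC3, SE 0.073). ATP5MJ, a small subunit of the membrane part, gave -0.21 (unadjusted p = 0.0820, limma). The 4 measured subunits of the catalytic F1 head lay between -0.14 and -0.01.

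**Figure D2:**
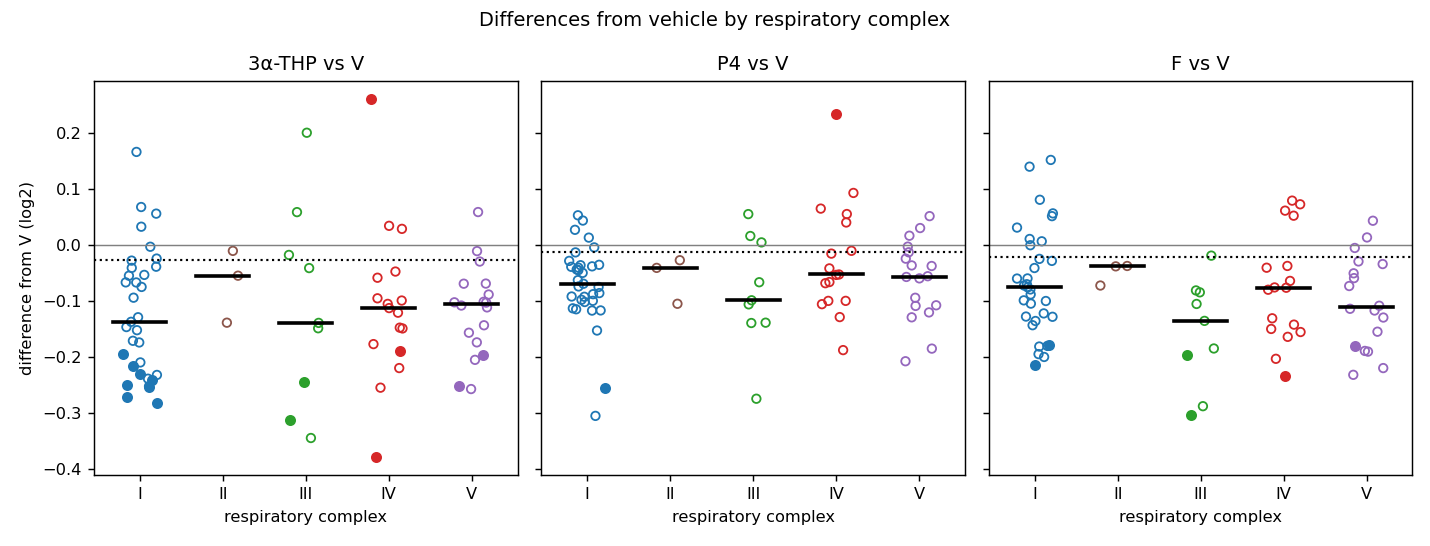
Log2 difference from V of each gene (points) by respiratory complex for 3α-THP, P4 and F; filled points have an unadjusted p under 0.05 in the limma fit, bars are medians over the genes of a complex, and the dotted line is the median over all tested clusters. The bars lie below the dotted line in all 5 complexes in each panel. With 3α-THP they run from -0.14 (complexes I and III) to -0.05 (complex II, with the brighter clusters of SDHC and SDHD).

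The 3α-THP differences varied with the length of the genes. The respiratory chain genes are short: their median span in the genome was 8608 bp, beside 24082.5 bp over tested clusters with a known span, and 67 of the 80 were at or below that median. Over all clusters, the median 3α-THP difference in 4 bins of span with 25% of the clusters each was, from the shortest, -0.06, -0.05, -0.02 and 0.01. The members in these bins had medians of -0.11 (38 genes), -0.14 (29 genes), -0.04 (10 genes) and 0.03 (3 genes). All 14 lower members were in the 2 shorter bins.

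When the trend with span was removed, 6 members remained lower at an unadjusted p under 0.05 (background 2.12%), namely COX5B, NDUFC1, ATP5ME, NDUFB7, UQCR11 and NDUFA11, and COX8C remained higher. The median was then -0.07, beside -0.002 over all clusters. Of the 80 members 62 were below 0, and the share of all clusters below 0 was not computed for this setting. With the replicate number as a block and no such removal, 22 were lower (background 7.91%) and 2 higher (background 1165 of 21214 clusters). The smallest adjusted p was then 0.0888 (limma). Without V array 2, 9 members in place of 15 had an unadjusted p under 0.05. What the span stands for in these data was not tested.

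**Figure D3:**
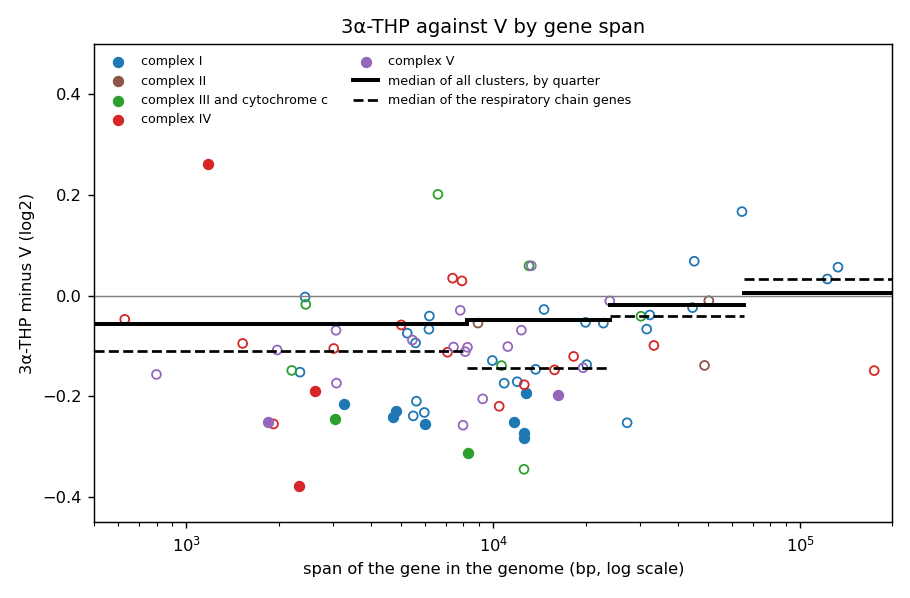
3α-THP minus V (log2) against the span of the gene (bp, log scale) for the 80 genes, coloured by complex; filled points have an unadjusted p under 0.05, solid lines are medians over all tested clusters in each of 4 bins of span, and dashed lines are those of the respiratory chain genes. The dashed lines lie below the solid ones in the 3 bins of shorter genes, at -0.11, -0.14 and -0.04.

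With P4 the median difference from V was -0.06, beside -0.01 over all clusters. No member passed the threshold (0.0236% of all clusters did), and 65 were below 0, beside 56.1% of all clusters. At an unadjusted p under 0.05, 1 member was lower (background 0.905%) and 1 was higher (background 0.914%), and 4 were lower without overlap (background 3.47%). The lower member was NDUFS7, at 6.80, 6.82 and 6.74 with P4, a difference of -0.26. The higher one was COX8C, at 4.31, 4.44 and 4.29, a difference of 0.24. Both calls rested on single arrays: NDUFS7 was lost without V array 1 or 2, any P4 array or F array 3, and COX8C without V array 1 or P4 array 2. The count was 1 without V array 2 or F array 3 (COX8C) and without P4 array 2 (NDUFB6). Neither passed the adjustment (the smallest adjusted p of the members was 0.99996, limma).

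NDUFB6, an accessory subunit of complex I, had the lowest P4 value, -0.31. Its levels were 7.42, 7.91 and 7.57 with V and 7.28, 7.58 and 7.12 with P4. The groups overlapped because array 2 was high in both, and within replicate numbers each P4 array was the lower. Its unadjusted p was 0.0969 without and 0.00241 with the number as a block (limma). Complex II gave -0.03 for SDHA, -0.10 for SDHC and -0.04 for SDHD, and ATP5MJ, ATP5MGL and UQCRQ gave -0.21, -0.19 and -0.14.

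With F, given at 100 nM, 66 members were below 0 (58.2% of all clusters were), and the median was -0.08 beside -0.02. No member passed the threshold (0.396% did), 6 were lower at an unadjusted p under 0.05 (background 2.11%) and 0 were higher (background 2.58%), and the smallest adjusted p was 0.911 (limma). On 8 members the arrays of F lay below those of V without overlap (background 5.51%). With the number as a block 11 were lower (background 4.16%), after removal of the span trend 1 (background 1.44%), and without V array 2 or without F array 1 the count was 2 or 3.

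The 1 that remained was UQCR11. It was at 7.13, 7.17 and 7.08 with F, all below the V arrays, a difference of -0.30 (SE 0.099, adjusted p = 0.911, limma). The other lower members were UQCR10 (-0.20), ATP5ME (-0.18), NDUFC1 (-0.18), NDUFB2 (-0.21) and COX7A1 (-0.23). NDUFB2 is an accessory subunit of complex I and COX7A1 the heart and muscle isoform of subunit 7A. COX7A1 was at 5.40, 5.51 and 5.45 with V and at 5.33, 5.20 and 5.12 with F. All 9 members of complex III with cytochrome c were below 0, with a median of -0.14.

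Of the 14 members lower with 3α-THP, 4 (28.6%) were among the 6 lower with F, and these were 66.7% of the latter. They were NDUFC1, UQCR10, UQCR11 and ATP5ME. The V arrays are shared between both comparisons, and the same overlap over all clusters was not computed. The overlap was therefore not read as particular to the members.

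3α-THP and P4 were given at the same dose, and their direct difference does not use the V levels. The V arrays still enter the shared estimate of spread behind its p values. No member passed the threshold (0.25% of all clusters did), and the smallest adjusted p was 0.999 (limma). The levels with 3α-THP were lower for 54 of the 80, beside 55.2% of all clusters, with a median of -0.03 beside -0.01 over all clusters. At an unadjusted p under 0.05, 5 members were lower (background 2.14%) and 0 were higher (background 1.82%), and 9 were lower without overlap (background 5.1%).

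The 5 were COX5B (-0.28), ATP5MC2 (-0.23), NDUFA3 (-0.21), UQCR11 (-0.21) and UQCR10 (-0.18). The 95% intervals of the single members lay between -0.64 and 0.80, so a fold of 1.5 was inside the interval of some genes and the 2 steroids were not shown to act alike. With the number as a block, 9 were lower, (background 4.8%), among them COX8A (-0.32), the ubiquitous isoform of the last complex IV subunit, whose unadjusted p was 0.0501 without and 0.00258 with it (limma). After removal of the span trend 2 were lower (background 1.43%), COX5B and ATP5MC2, and without 3α-THP array 3, P4 array 1, P4 array 2 or F array 2 the count was 1, 3, 0 or 3.

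F was given at another dose than the other steroids, so its differences from them are given side by side and not as a comparison of the compounds. Against F, 3α-THP had 0 members past the threshold (0.0566% of clusters), 1 lower (COX5B, -0.24; background 1.07%) and 1 higher (COX8C, 0.19; background 1.22%). P4 had 0 past it (0.0519%), 0 lower (background 1.21%) and 1 higher (COX7A1, 0.29; background 1.66%). For 3α-THP against F the count of 2 was 1 without any single array of V or P4 or without F array 1, and 0 without F array 2. For P4 against F the count of 1 was 0 without P4 array 2, and 2 without 3α-THP array 1, P4 array 3, F array 1 or F array 3. In a joint test of the 4 treatments 8 members had an unadjusted p under 0.05 (background 3.81%), 15 did with the number as a block (background 9.02%) and 3 after removal of the span trend (background 3.66%). Without V array 1, V array 2, 3α-THP array 1 or 3α-THP array 3 the count was 3, 3, 4 or 3.

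**Figure D4:**
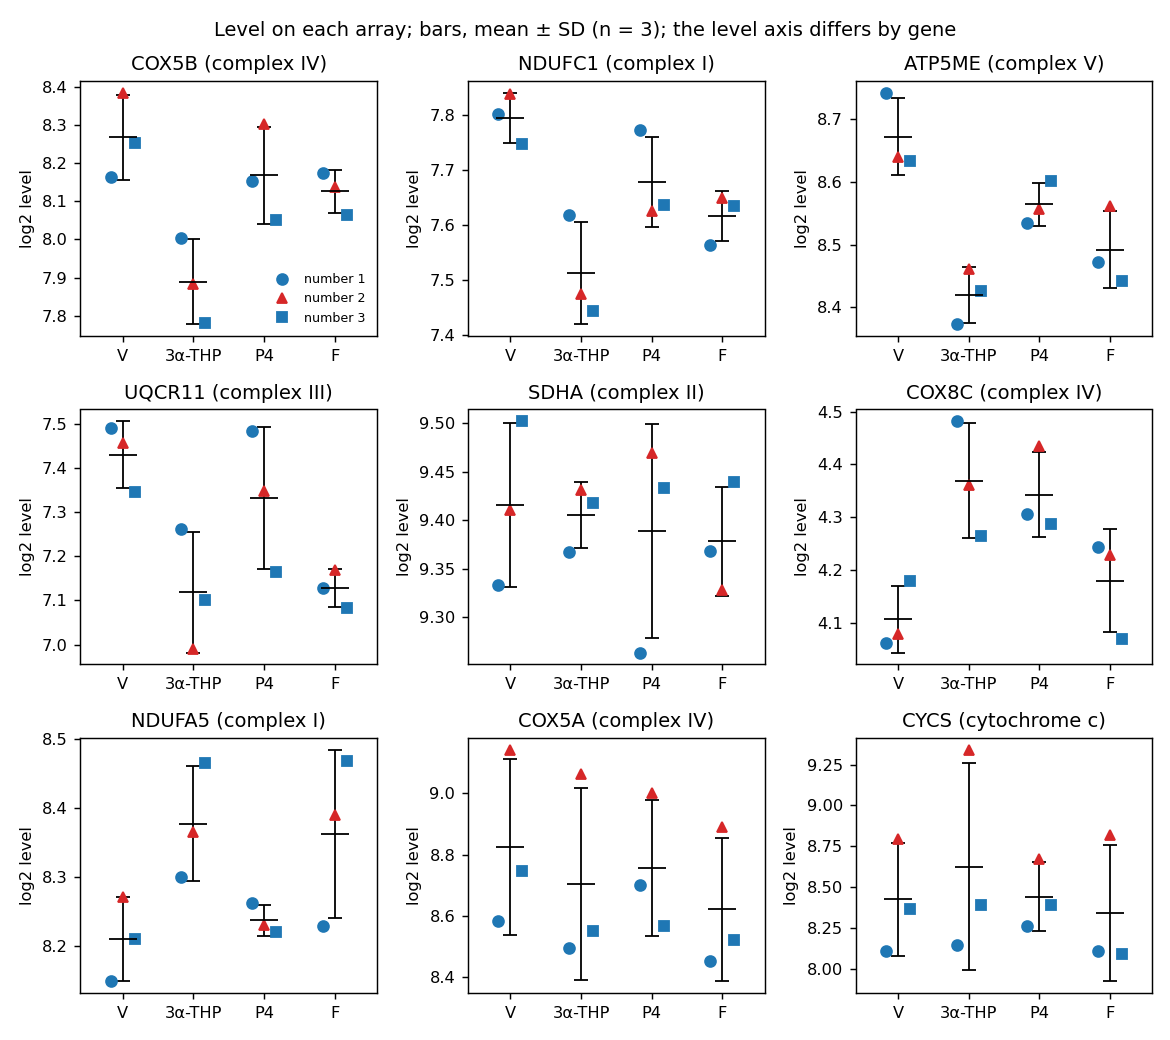
Log2 level of 9 respiratory chain genes on each array by treatment, with the mean ± SD (n = 3); red triangles are the arrays numbered 2, blue circles those numbered 1 and blue squares those numbered 3. In COX5B all 3α-THP arrays (7.78 to 8.01) lie below the rest, in SDHA the treatments overlap, and in COX5A and CYCS the arrays numbered 2 are the highest of each treatment.

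Over all members the replicate number took a larger median share of the spread than the treatment. The arrays numbered 2 were higher than those numbered 1 and 3 for 72 of the 80 members, beside 9191 of all 21214 clusters. The median difference was 0.13 (9.46%), beside -0.02 over all clusters. At an adjusted p under 0.05 (limma), 21 members (26.25%) differed between numbers, beside 16.1% of all clusters. All 21 were higher in number 2, beside 1884 of the 3406 clusters that differed. Of the total spread over the 12 arrays, the median share was 39.9% for the number and 23.6% for the treatment, beside 28.7% and 20.7% over all clusters. In the 17 genes of complex IV the shares were close, with 25.9% for the number and 27.6% for the treatment. The shares were not adjusted for the larger number of groups among the treatments, which favours the treatment, so no order was read from them in complex IV. What the replicate number stands for is not given in the labels, and its cause was not tested.

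The gene most clearly apart by number was COX5A, another nuclear subunit of cytochrome c oxidase. It was at 9.14, 9.06 and 8.89 on the arrays numbered 2 of V, 3α-THP and F, with P4 in between, and between 8.45 and 8.75 on the other 8 arrays. The difference was 0.45 (adjusted p = 0.0010, limma). ATP5MC1 was 0.50 higher (adjusted p = 0.00105, limma), at 9.19, 9.01, 8.92 and 9.01 against 8.30 to 8.66.

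CYCS had the largest difference and the largest residual SD of the members (0.43). Its mean was 8.91 in number 2, 8.16 in number 1 and 8.31 in number 3, and the highest array was 3α-THP number 2 at 9.34. CYC1, which passes electrons to cytochrome c, was 0.35 higher in number 2 (adjusted p = 0.00518, limma). NDUFA6 (0.38) and NDUFB6 (0.40) had the smallest p in complex I, both with an adjusted p of 0.00234 (limma).

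By complex, 9 genes of complex I, 3 of complex III with cytochrome c, 4 of complex IV and 5 of complex V differed by number, and none of the 3 of complex II did (1 of the 3 had an unadjusted p under 0.05 in limma). In complex V all 18 genes were higher in number 2, beside 9191 of all 21214 clusters. The count was 10 without V array 2, 10 without 3α-THP array 2 and 13 without F array 2.

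None of the 14 members lower with 3α-THP was among the 21, and the fit that gave the 14 counts differences by number as residual spread. COX5B was 0.10 higher in number 2 than in the other numbers, and for NDUFC1, UQCR11 and ATP5ME this difference was -0.01, -0.02 and 0.03. After CYCS the largest residual SDs were those of COX7B (0.33) and NDUFA9 (0.32), and the smallest after ATP5ME those of ATP5MC3 (0.052) and NDUFA10 (0.054).

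**Figure D5:**
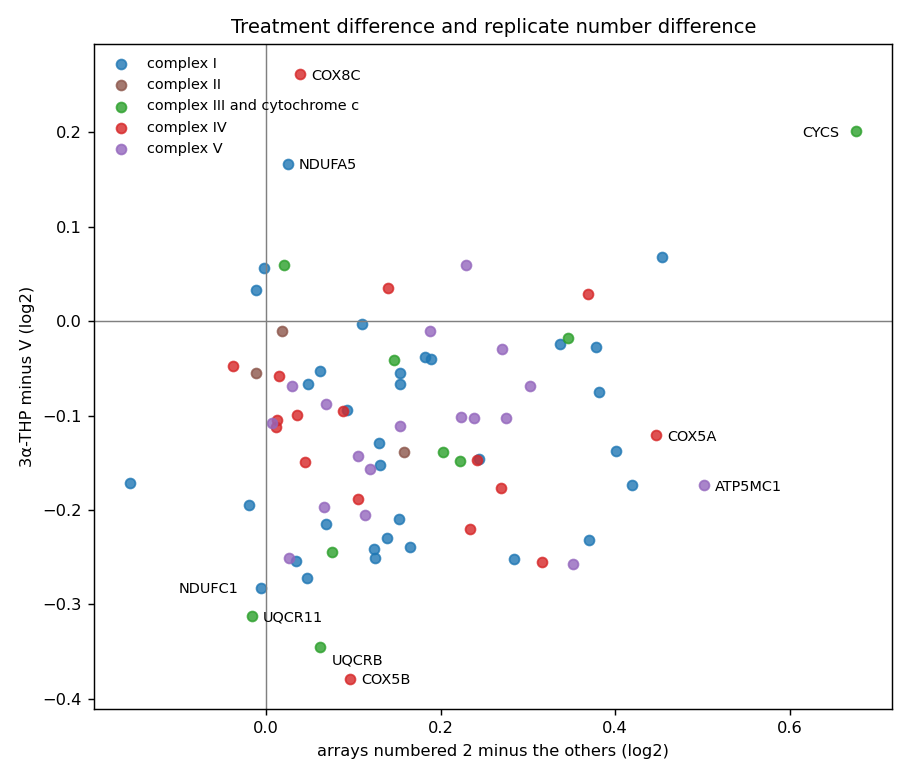
For each of the 80 genes, 3α-THP minus V (log2, vertical) against the mean of the arrays numbered 2 minus that of the other arrays (log2, horizontal), coloured by complex. Most points lie to the right of 0 (72 of 80, beside 9191 of all 21214 clusters). Most also lie below 0 (70 of 80, beside 58.9% of all clusters). COX5B and UQCR11 are at the bottom near the vertical line and CYCS, COX5A and ATP5MC1 at the right.

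The promoter motifs were spread over both kinds of gene. Among the 14 members lower with 3α-THP, all with a promoter in the table, the NRF1 core stood in 5 (35.7%), the ETS core in 6 (42.9%) and the YY1 core in 3 (21.4%). Among the 16 with a promoter of the 21 that differed by number, they stood in 5, 4 and 5. These counts are descriptions of short sequences in small groups.

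Other genes of the pathway were described list by list. With 3α-THP against V, no gene of the lists of assembly factors, tricarboxylic acid cycle enzymes, biogenesis regulators or inner membrane carriers and import proteins passed the threshold. Of 16 measured assembly factors of complex I, 2 were lower at an unadjusted p under 0.05 (background 4.09%), NDUFAF3 (-0.25) and DMAC1 (-0.22). The median of this list was -0.01. Of 9 factors of complexes II and III, 1 was higher (background 3.25%). It was LYRM7 (0.30, adjusted p = 0.406, limma), a chaperone of the Rieske iron-sulphur protein of complex III. LYRM7 was also higher with P4 (0.27, background 0.914%) and F (0.37, background 2.58%).

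Of 22 factors of complex IV, COX18 (-0.28) and HIGD2A (-0.30) were lower (background 4.09%), and the median was -0.02. The 5 factors of complex V had a median of -0.10 and none with an unadjusted p under 0.05, with DMAC2L at 0.16 and TMEM242 at -0.15. The 17 enzymes of the tricarboxylic acid cycle and pyruvate entry had a median of 0.00, with IDH2 at -0.16 and IDH3B at -0.23. The 23 regulators of mitochondrial biogenesis had a median of 0.04, with MTERF1 at 0.21 and GABPA, the DNA-binding subunit of GABP, at 0.19. Whether the cluster named GABPA reads that gene or a copy elsewhere was not tested. The 22 carriers and import proteins had a median of -0.05, with OPA1 at 0.28 and VDAC1 at -0.16. The last 4 lists had no gene with an unadjusted p under 0.05 with 3α-THP.

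Subunits listed under symbols outside the choice gave -0.05 for COXFA4 (formerly NDUFA4), -0.22 for its paralog COXFA4L2 and -0.14 for NDUFAB1, the acyl carrier protein of complex I. Of the markers of other cell types, 1 of 6 neuronal genes, SYT1, was higher with 3α-THP (0.31, background 3.25%). No oligodendrocyte, leukocyte, endothelial or epithelial marker had an unadjusted p under 0.05. Their part in the differences of the respiratory chain genes was not tested.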

How the data were processed

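The authors deposited 1 log2 value per transcript cluster and array, normalized between the 12 arrays. The submitters' processing notes name Affymetrix Expression Console 1.4. The methods of the study name quantile normalization for its own analysis. Array medians over tested clusters ran from 6.35 to 6.40, and the number of arrays limits the precision.

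Of 33297 clusters, 12083 had no gene name and 21214 were tested, 703 of which have values equal to those of another cluster. Genes were named through the platform annotation, and only clusters with 1 gene were used as members. A further 9 clusters with several genes hold a matching symbol and were left out. The members and lists were chosen with earlier results of these data known, and the lists were written from general knowledge. Named genes are those with an unadjusted p under 0.05 (at most 10), the 3 with the smallest p in each complex, the SDH genes, CYC1, CYCS and isoform pairs, and the extremes by replicate number and spread, with 2 genes per list. NDUFA1, NDUFA5, NDUFA7, NDUFB6, NDUFB11, NDUFS3, NDUFS7, NDUFS8, NDUFV1, COX8A, ATP5MK and the window genes were named for 3α-THP or elsewhere outside this rule, after their values were seen.

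Each cluster was modelled by its 4 treatment means, without pairing, in limma 3.58.1 (R 4.3.3). The Benjamini-Hochberg adjustment ran over all tested clusters and the script was tested on simulated data. The replicate numbers pair the arrays: deviations from treatment means correlated at 0.132 to 0.631 (median 0.400) in all 18 pairs with the same number. In 36 other pairs they correlated at -0.604 to 0.226 (median -0.245), so the ranges overlapped. Promoters and spans came from RefSeq tables of GRCh38.p14, spans for 91.6% of clusters. Alternatives tried were the replicate block, other normalizations, variance models and gene choices, removal of the trend with span, and each array left out.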

Additional observations from a re-analysis of the deposited data

How the results depend on the processing

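No member passed the fold and p threshold under any alternative run. In the comparisons with V and in 3α-THP vs P4, no difference of a member with an unadjusted p under 0.05 reversed. The calls in 3α-THP vs F and P4 vs F were not examined for this. Against V, the second cluster of SDHC differed in sign from the one used with all 3 steroids, and that of ATP5MK with 3α-THP and F, in each case without such a p. Counts of members with an unadjusted p under 0.05, given in the order 3α-THP vs V, P4 vs V, F vs V, 3α-THP vs P4, 3α-THP vs F and P4 vs F, were 15, 2, 6, 5, 2 and 1. The test over the 4 treatments had 8, and 21 members differed between replicate numbers at an adjusted p (limma). With the number as a fixed replicate block the counts were 24 for 3α-THP vs V, 11 for F vs V, 9 for 3α-THP vs P4, 5 for 3α-THP vs F, 6 for P4 vs F and 15 for the 4 treatments, and with a random replicate block 9 for 3α-THP vs P4 and 3 for P4 vs F. With the trend with span removed they were 7, 1, 1, 2 and 1 for the first 5 comparisons and 3 for the 4 treatments, and the median of P4 vs F was -0.000274 in place of 0.02. With cyclic loess before that removal they were 9, 1, 1, 2, 1 and 3 in the same order. With span removal and the replicate block together, both chosen together after seeing the data as was cyclic loess with span removal, F vs V had 3, 3α-THP vs F 5 and P4 vs F 4, and the median of P4 vs F was -0.000274.

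Without the 4 arrays numbered 2, the counts were 9 (3α-THP vs V), 1 (P4 vs V), 2 (F vs V), 1 (3α-THP vs F), 0 (P4 vs F), 0 for the 4 treatments and 0 for replicate numbers, with fewer arrays in the fit. With only the 2 treatments compared, F vs V had 3, 3α-THP vs P4 3 and 3α-THP vs F 1. The analysis of variance of the methods gave 8 (3α-THP vs P4), 3 (P4 vs F) and 10 (replicate numbers), and array weights 8 and 2 for the first 2 of these. Cyclic loess gave 1 (P4 vs V), 1 (3α-THP vs F) and 2 (P4 vs F), the dimmest clusters left out 1 and 1 for the first 2, and quantile normalization, a variance trend and 1 cluster per gene gave 1 for 3α-THP vs F. The cause of these shifts was not tested.

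With single arrays left out, the counts ran from 9 to 18 (3α-THP vs V), 1 to 3 (P4 vs V), 2 to 7 (F vs V), 0 to 7 (3α-THP vs P4), 0 to 3 (3α-THP vs F), 0 to 2 (P4 vs F), 3 to 9 (4 treatments) and 10 to 25 (replicate numbers). The median of the members ran from -0.18 to -0.06 (3α-THP vs V), -0.10 to -0.01 (P4 vs V), -0.13 to -0.02 (F vs V), -0.103 to 0.00597 (3α-THP vs P4), -0.0920 to 0.0176 (3α-THP vs F) and -0.0181 to 0.0678 (P4 vs F), so the last 3 had no settled sign. The 3α-THP calls of COX5B, NDUFC1, ATP5ME, NDUFB7, UQCR10, UQCR11 and COX8C held without any 1 array, while those of NDUFB11, NDUFS7 and COX6A1 were lost without 8 of the 12. With 3 arrays a treatment and a median residual SD of 0.13 for the members, small differences were at the limit of what the design can show.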
